A study of Mus musculus with 9 samples.

Results

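The kinesin motor genes of the mouse were followed in a model of WNT medulloblastoma, a tumour of the cerebellum and brainstem. Members were the genes whose symbol in the deposited count table is Kif with a number and at most a letter a to c, or Kifc with a digit. This gave 40 of 24444 gene symbols, of which 38 had counts in at least 1 library and were tested. Kif2b and Kif12 had 0 counts in all 9 libraries. By the textbook role of each protein, 13 members were put among the mitotic kinesins, 11 among the axonal and neuronal, 8 among those of cilia and centrioles, 5 among carriers of endosomes and Golgi membranes, and 3 among atypical or little studied ones. Motors whose symbol has another form, such as Cenpe, are not members.

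Kinesins are motor proteins that use ATP to walk along microtubules, most of them towards the plus end. One set builds and moves the mitotic spindle and is transcribed mainly in cells about to divide, with a transcription programme in G2 and M that acts through short promoter elements named CHR and CCAAT box. Another set carries vesicles, mitochondria and other cargo along the axons and dendrites of neurons and is abundant in adult brain, while kinesin-2 motors move cargo into the primary cilium, where Kif7 also acts in Hedgehog signalling.

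The MycT58A and EV groups were orthotopic tumours that grew in CD1-nude hosts from implanted cells. These cells came from Blbp-Cre; Ctnnb1Ex3flx/flx; Trp53flx/flx animals that also carried Pik3caE545K +/flx, so that both tumour groups share these alleles. Blbp, also called Fabp7, is a gene of radial glia and neural progenitors whose promoter drives the Cre recombinase. The 3 MycT58A tumours also carried MycT58A, a mutant form of Myc that is broken down more slowly than the normal protein, and the 3 EV tumours carried the construct labelled EV in its place. The 3 controls were normal cerebellum of CD1-nude mice. GFP-positive tumour regions were microdissected, so host cells inside those regions are part of each tumour library. Ages, and whether tumours of a group came from 1 preparation of cells, are not given in the labels, so a p-value here speaks only of how much these libraries vary.

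Total counts per library were 16631523 to 30410089. Levels are in CPM, counts divided by the TMM-scaled library size. Myc had 918, 859 and 727 CPM in MycT58A tumours, 360.0, 19.9 and 762 CPM in EV tumours, and 0.940, 1.60 and 32 CPM in control cerebellum. The library labelled EV replicate 3 thus lies inside the range of the MycT58A tumours for Myc, although the counts do not tell the construct from the gene itself. A protocol label calls the control tissue cortex. Control libraries held 522 to 888 CPM of Gabra6, a gene of cerebellar granule neurons, whose 8 markers summed to 4255 to 5878 CPM there. A list of 6 forebrain cortex markers summed to 10.9 to 15.3 CPM in MycT58A tumours, 3.32 to 22.0 CPM in EV tumours and 41.8 to 85.5 CPM in control libraries, most of it there from Cux2 (38.1, 52.7 and 79.5 CPM). Emx1, the cortex gene of that list with no count in any of the 9 libraries, does not separate the tissues. Control replicate 3 had 9.89 CPM of the proliferation gene Mki67, against 0.736 and 0.354 CPM in control replicates 1 and 2.

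Against control cerebellum, most kinesins differed in both kinds of tumour. In MycT58A tumours 18 of the 38 tested members were higher and 14 lower than in control cerebellum at an edgeR adjusted p under 0.05, which is 84.2% of members beside 62.2% of all 15171 genes tested (31.2% higher and 31.0% lower). In EV tumours 18 were higher and 12 lower than in control cerebellum, which is 78.9% of members beside 57.0% of all genes tested (30.7% higher and 26.3% lower). Both comparisons use the same control libraries. Between the tumour groups 2 of 38 members passed, Kif18a and Kifc3, both higher in MycT58A tumours. That share of 5.26% is not above the 8.30% of all genes that passed, of which 3.28% were higher and 5.02% lower in MycT58A tumours. At an unadjusted p under 0.05 there were 12 members, 9 higher and 3 lower in MycT58A tumours, and 31.1% of all genes.

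In the mitotic and the axonal and neuronal classes the direction followed the role of the motor. The classes were drawn up with earlier results of these data known. All 12 tested mitotic kinesins were higher than in control cerebellum in both kinds of tumour, with a median of 66.5-fold in MycT58A tumours and 28.2-fold in EV tumours. Of the 11 axonal and neuronal kinesins 9 were lower and 1 higher in each kind of tumour, with a median log2 fold change of -3.11 in MycT58A tumours and -3.02 in EV tumours. Over all genes tested the median log2 fold change was -0.02 and 0.14 in these comparisons. RNA from bulk tissue does not tell fewer cells of a type from less RNA per cell, and this holds for every comparison here.

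Taken per base of exon, the make-up of the kinesin RNA differed between tumours and cerebellum. Mitotic kinesins held 49.9%, 49.2% and 51.6% of the kinesin reads per exon length in MycT58A tumours, 41.3%, 16.1% and 39.8% in EV tumours, and 0.203%, 0.231% and 0.405% in control cerebellum. Axonal and neuronal kinesins held 25.0%, 26.5% and 25.9% in MycT58A tumours, 28.5%, 44.0% and 30.3% in EV tumours, and 89.0%, 88.4% and 90.4% in control cerebellum. EV replicate 2 stands between the other tumours and cerebellum on both shares. In CPM per kilobase of exon, the highest members were Kif5b at 31.8 ± 2.0, Kif20a at 26.6 ± 3.6 and Kif11 at 21.5 ± 0.45 in MycT58A tumours (SD, n = 3). In EV tumours they were Kif5b at 36.3 ± 1.3, Kif1c at 26.8 ± 5.6 and Kif20a at 15.1 ± 7.7, the last with a spread that reaches several members ranked after it. In control cerebellum they were Kif5a at 336 ± 93, Kif5c at 206 ± 19 and Kif1a at 183 ± 28. Kif5a was above Kif5c in every control library, while the values of Kif5c and Kif1a overlapped.

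**Figure D1:**
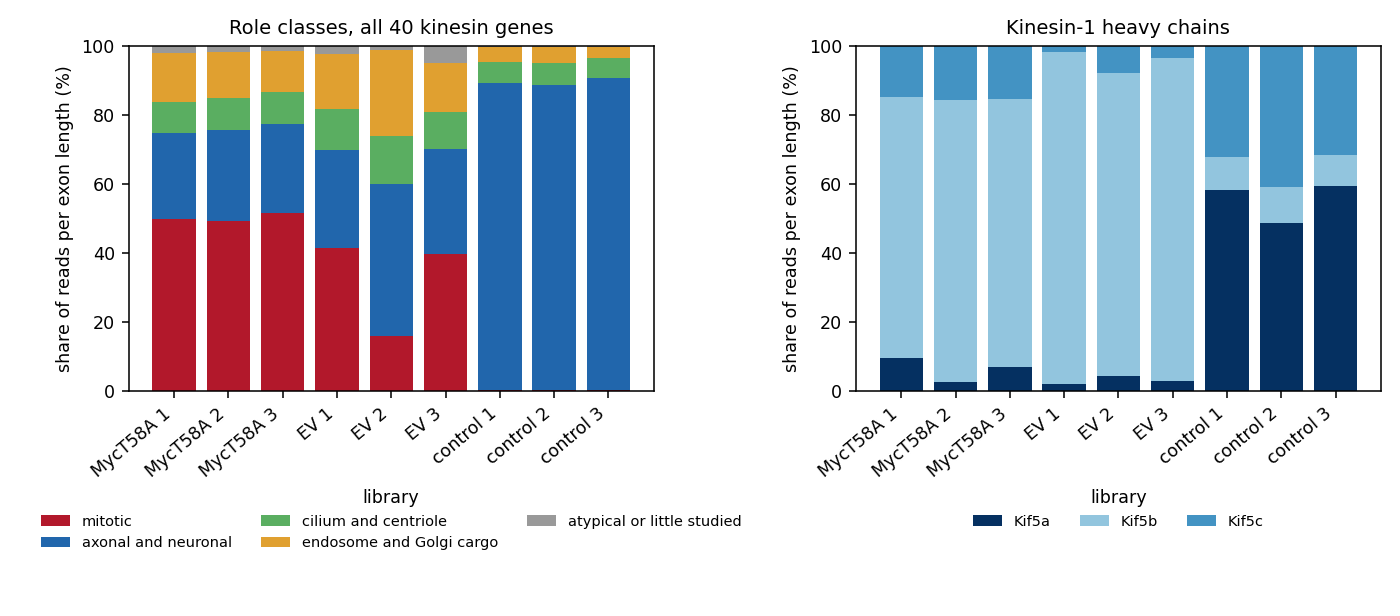
Share of kinesin reads per exon length in each of the 9 libraries, as stacked bars in percent, by role class for all 40 members (left) and by gene for the kinesin-1 heavy chains Kif5a, Kif5b and Kif5c (right). Mitotic kinesins take about as much as all other classes together in the MycT58A tumours (49.2% to 51.6%) and under 0.5% in control cerebellum, where axonal and neuronal kinesins take 88.4% to 90.4%.

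Among the mitotic kinesins, Kif11 is the motor that slides opposed spindle microtubules apart and so separates the poles. It had 160.1, 164 and 157 CPM in MycT58A tumours, 93, 20.3 and 45 CPM in EV tumours, and 2.04, 1.91 and 3.17 CPM in control cerebellum. All 6 tumours lay above all controls, at 67.6-fold in MycT58A tumours (log2 fold change 6.08 ± 0.59 SE, edgeR adjusted p = 7.65e-05) and 22.2-fold in EV tumours (4.47 ± 0.55, edgeR adjusted p = 0.000262). Without EV replicate 1, the highest EV tumour for this gene, the EV value is 13.7-fold. Kif15, a motor of another family that can also hold the spindle poles apart, had 77.7, 63.5 and 79.2 CPM in MycT58A tumours, 36.2, 12 and 33.3 CPM in EV tumours, and 0.368, 0.222 and 0.70 CPM in control cerebellum. Its tumours again lay above every control, at 169.9-fold in MycT58A (edgeR adjusted p = 4.19e-05) and 62.8-fold in EV tumours (edgeR adjusted p = 8.74e-05).

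The kinesin-6 motors work in the midzone between the separating chromosomes and in cytokinesis. Kif23, the motor subunit of the centralspindlin complex, had 83.9, 76.5 and 81.2 CPM in MycT58A tumours, 65.1, 17.8 and 46.1 CPM in EV tumours, and 0.0817, 0.0886 and 0.420 CPM in control cerebellum. In the analysis of all 9 libraries it had the greatest rise of the tested members in either kind of tumour, 407-fold in MycT58A (log2 fold change 8.67 ± 0.76 SE, edgeR adjusted p = 5.14e-05) and 218-fold in EV tumours (7.77 ± 0.73, edgeR adjusted p = 8.29e-05). The control level rests on 13 counts in all, 9 of them in control replicate 3, and without that library the folds are 905 in MycT58A and 493 in EV tumours. Kif20a, which brings the chromosomal passenger complex to the midzone, had 125, 97.4 and 123 CPM in MycT58A tumours, 84.8, 26.9 and 84.5 CPM in EV tumours, and 1.88, 1.77 and 3.31 CPM in control cerebellum. That is 49.6-fold in MycT58A (edgeR adjusted p = 6.63e-05) and 28.2-fold in EV tumours (edgeR adjusted p = 0.000131), and Cdc23 on the opposite strand covers 29.3% of its exon bases. Cdc23 itself was 2.70-fold higher in MycT58A and 2.30-fold higher in EV tumours than in control cerebellum. Kif20b, the remaining kinesin-6 gene, was 65.5-fold and 26.8-fold higher in MycT58A and EV tumours than in control cerebellum, or 122-fold and 51.0-fold without control replicate 3.

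Kif22 is a chromokinesin, a motor that sits on chromosome arms and pushes them to the spindle equator. It had 113, 94.5 and 109 CPM in MycT58A tumours, 44.5, 20.3 and 72.2 CPM in EV tumours, and 1.19, 1.51 and 2.15 CPM in control cerebellum. The folds over control cerebellum were 65.3 in MycT58A (edgeR adjusted p = 4.81e-05) and 28.3 in EV tumours (edgeR adjusted p = 0.000115). The other chromokinesin, Kif4, had the highest control level of the class, 3.02, 2.70 and 7.79 CPM, and was 19.4-fold and 13.2-fold higher in MycT58A and EV tumours (30.8-fold and 21.6-fold without control replicate 3). Among the motors that shorten microtubules, Kif2c, which corrects wrong attachments at kinetochores, was 152-fold higher in MycT58A and 71-fold higher in EV tumours, while Kif18a was 23.2-fold and 6.79-fold higher. Without control replicate 3 the folds of Kif2c are 477 and 228. Kifc1, a minus-end motor that focuses spindle poles, was 27.6-fold and 15.8-fold higher, although reads of its near-identical copy Kifc5b may be among its counts.

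Kif14, a partner of citron kinase in cytokinesis, and Kif18b, which shortens astral microtubules, were close to absent from the cerebellum. Kif14 had 1, 0 and 21 counts in the control libraries, and its ratio over control was 92.9 in MycT58A (exact 95% interval 61.2 to 148) and 54.2 in EV tumours (35.6 to 86.8). Without control replicate 3 a single control count remains, with a ratio of 1404 (252 to 55460) in MycT58A and 819 (147 to 32370) in EV tumours. Kif18b had 3, 0 and 20 control counts, with ratios of 137 (91.4 to 217) and 85.7 (56.9 to 135) in MycT58A and EV tumours, or 724 (247 to 3511) and 451 (154 to 2190) without control replicate 3. These intervals cover counting error only. All 12 tested mitotic kinesins passed in both comparisons in each of the 17 alternative analyses. For all 12, every tumour of either kind was above every control, beside 41.0% of all genes in MycT58A and 30.3% in EV tumours.

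Control replicate 3 was the highest control library for all 12 mitotic kinesins. Their summed level was 25.9 CPM there, against 11.8 and 11.4 CPM in control replicates 1 and 2. The proliferation markers moved the same way: all 8 were higher than in control cerebellum in both kinds of tumour, and their summed level was 2425 to 2807 CPM in MycT58A tumours, 534 to 1736 CPM in EV tumours, and 56.6, 58.9 and 93.4 CPM in the control libraries. How far a difference in the share of dividing cells makes up the mitotic result was not tested.

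**Figure D2:**
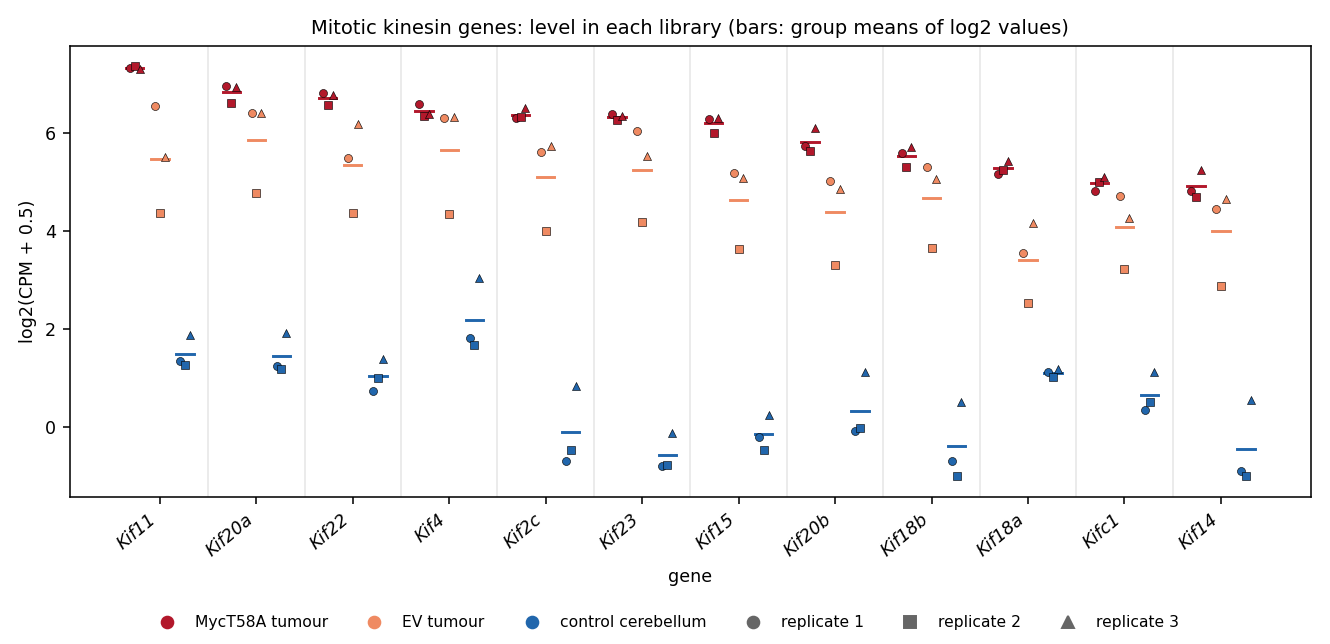
Level of the 12 tested mitotic kinesins in each library as log2(CPM + 0.5), with a mark for each replicate and a bar for the mean of the 3 libraries of a group, MycT58A, EV and control from left to right within a gene. All 6 tumours lie above all 3 controls for each gene, EV replicate 2 is the lowest tumour throughout and control replicate 3 the highest control throughout.

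Promoters were read because the mitotic members moved together. RefSeq (GRCm38.p6) has a promoter window, from 250 bases before to 50 after the start of transcription, for 32 of the 40 members, some with a second window. The 12 mitotic members with a window include Kif2b and not Kif20a. The CHR element was searched as TTTGAA, the CCAAT box as CCAAT and the E-box, the element Myc binds with Max, as CACGTG, each on both strands. A CHR stood in the windows of 10 of 12 mitotic members, 3 of the 20 other kinesins and 20.2% of 27025 genes. A CCAAT box stood in 8 of 12 mitotic members, 7 of 20 others and 41.1% of all genes, and both elements in 7 of 12, 2 of 20 and 7.97%. The E-box letters were in 0 of 12 mitotic windows, in 1 of the 20 others (Kif1a) and in 8.09% of all genes. The stretches below run from 150 bases before to 30 after the start, with matches in capitals, where TTCAAA and ATTGG are the reverse-strand forms. Kif11 and Kif23 are shown for their large folds, Kif18b for its repeated CCAAT box, Kif15 as a member with a CHR and no CCAAT box, Kif18a as the mitotic member that passed between the tumour groups, and Kif5c as a neuronal motor.
Kif11, chr19:37376232-37376411, plus strand: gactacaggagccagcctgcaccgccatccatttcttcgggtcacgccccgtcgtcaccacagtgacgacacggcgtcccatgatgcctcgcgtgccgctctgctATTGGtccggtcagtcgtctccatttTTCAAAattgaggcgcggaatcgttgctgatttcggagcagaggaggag
Kif23, chr9:61946770-61946949, minus strand: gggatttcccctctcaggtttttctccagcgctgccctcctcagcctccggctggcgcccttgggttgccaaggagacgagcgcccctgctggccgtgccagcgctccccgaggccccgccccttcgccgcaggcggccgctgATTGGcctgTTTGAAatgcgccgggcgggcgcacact
Kif18b, chr11:102925095-102925274, minus strand: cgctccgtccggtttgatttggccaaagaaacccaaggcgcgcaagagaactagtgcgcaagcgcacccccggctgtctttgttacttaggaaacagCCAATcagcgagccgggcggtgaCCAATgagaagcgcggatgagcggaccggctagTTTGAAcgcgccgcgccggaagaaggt
Kif15, chr9:122950931-122951110, plus strand: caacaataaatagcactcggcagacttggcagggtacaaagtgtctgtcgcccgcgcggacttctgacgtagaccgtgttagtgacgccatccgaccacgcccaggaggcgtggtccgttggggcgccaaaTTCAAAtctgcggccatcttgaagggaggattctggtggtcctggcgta
Kif18a, chr2:109280588-109280767, plus strand: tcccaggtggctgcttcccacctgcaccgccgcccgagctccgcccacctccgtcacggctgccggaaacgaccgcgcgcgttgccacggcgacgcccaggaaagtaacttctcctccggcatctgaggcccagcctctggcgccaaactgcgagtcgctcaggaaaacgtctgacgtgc
Kif5c, chr2:49619136-49619315, plus strand: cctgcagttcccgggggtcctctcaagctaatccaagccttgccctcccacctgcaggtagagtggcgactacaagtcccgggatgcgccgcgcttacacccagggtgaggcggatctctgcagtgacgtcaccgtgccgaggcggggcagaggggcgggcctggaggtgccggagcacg
In Kif11 a CCAAT box begins 45 bases before the start and a CHR 19 bases before it. In Kif18b the CCAAT boxes begin 53 and 30 bases before the start. Kif15 has a CHR that also begins 19 bases before the start and another 234 bases before it, outside the printed stretch, whereas Kif18a and Kif5c hold none of the 3 elements in the whole window. A match of letters is a description of the sequence and says nothing of binding.

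**Figure D3:**
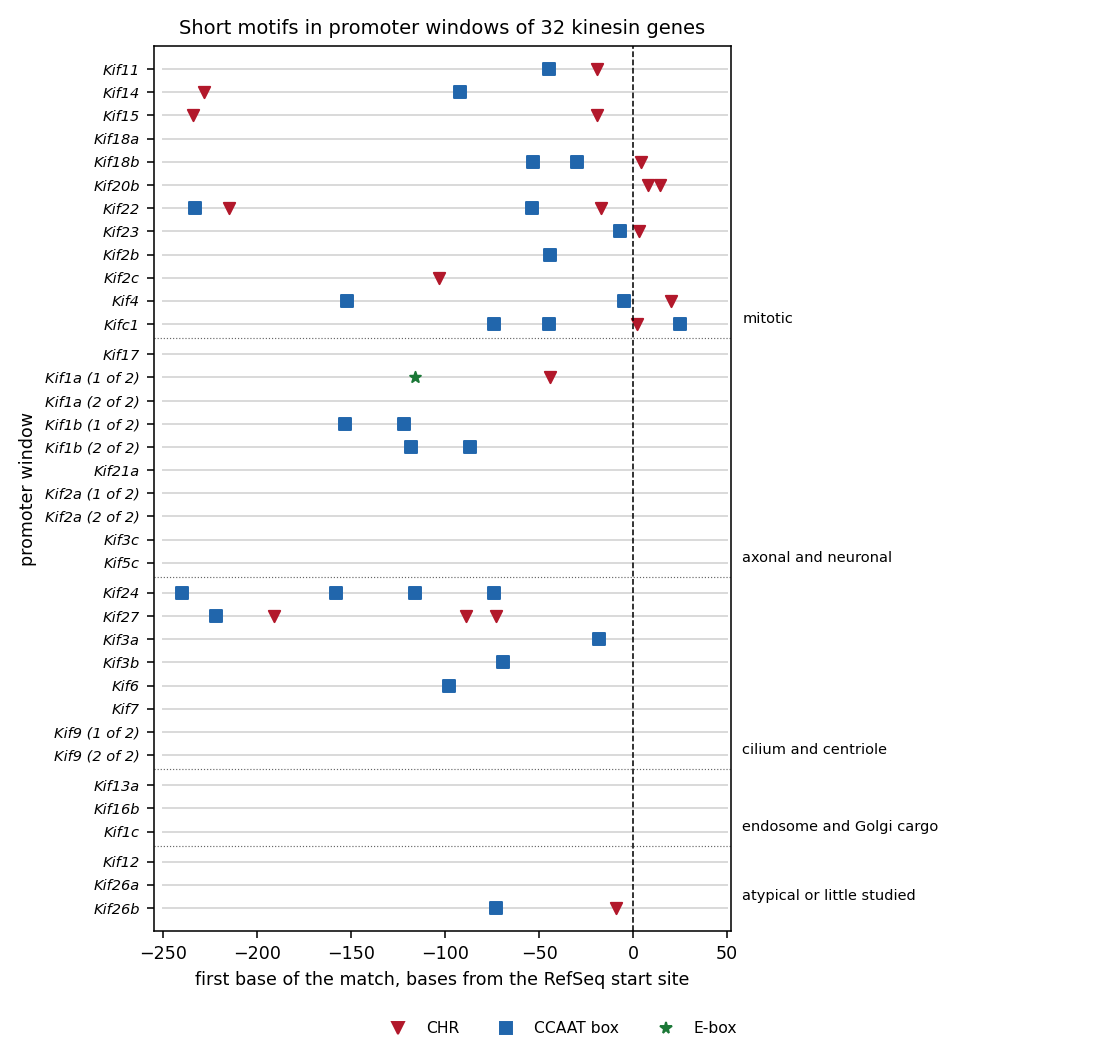
Position of CHR, CCAAT box and E-box matches on either strand in RefSeq promoter windows of 32 kinesin genes, as the distance in bases from the start of transcription (dashed line), grouped by role class. CHR marks stand in 10 of 12 mitotic members and 3 of 20 others, and most mitotic CHR marks lie close to the start.

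The spindle and midzone partners of these motors were read as a list of 18 genes. Against control cerebellum 16 were higher and 0 lower in MycT58A tumours, and 15 higher and 2 lower in EV tumours. Over all genes tested 31.2% were higher and 31.0% lower in MycT58A tumours, and 30.7% higher and 26.3% lower in EV tumours. Prc1, which bundles midzone microtubules and binds Kif4, had 133, 130.0 and 134 CPM in MycT58A tumours, 71.4, 43.2 and 86 CPM in EV tumours, and 1.43, 1.28 and 4.15 CPM in control cerebellum. It was 57.9-fold higher in MycT58A and 29.2-fold higher in EV tumours than in control cerebellum, or 98.6-fold and 50.6-fold without control replicate 3. Dlgap5, a spindle protein, was 146-fold and 62.3-fold higher, or 380.0-fold and 164-fold without that library. The 2 lower genes were Ckap5 and Cit. Ckap5, a microtubule polymerase, had 319.5, 305 and 309.8 CPM in MycT58A tumours, 124, 123 and 179 CPM in EV tumours, and 396, 374 and 408 CPM in control cerebellum, and it was lower in EV tumours (edgeR adjusted p = 0.000398). Cit, the citron kinase that Kif14 binds, was 2.19-fold lower in EV tumours (edgeR adjusted p = 0.0402) with no call in MycT58A tumours (edgeR adjusted p = 0.09). The call of Cit ended without any 1 library other than EV replicate 2, with library size alone and in the fit of the 2 groups alone (adjusted p up to 0.105). Its fall is 3.31-fold without EV replicate 2.

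Between the tumour groups the mitotic kinesins had positive log2 fold changes for MycT58A over EV in 12 of 12 members, from 0.55 for Kif4 to 1.77 for Kif18a. Their median was 1.0, beside -0.04 over all genes tested. In 11 of 12 members every MycT58A tumour was above every EV tumour, beside 18.2% of all genes, and Kif18b was the exception with 48, 39.2 and 52.3 CPM in MycT58A tumours and 39.5, 12.1 and 33.2 CPM in EV tumours. Of the 12 members 1 passed the test, a share of 8.33% that is at the 8.30% of all genes. Kif18a, which limits the swings of chromosomes on the spindle, had 35.5, 37.8 and 43.1 CPM in MycT58A tumours and 11.2, 5.27 and 17.6 CPM in EV tumours, against 1.68, 1.55 and 1.77 CPM in control cerebellum. It was 3.42-fold higher in MycT58A than in EV tumours (log2 fold change 1.77 ± 0.39 SE, edgeR adjusted p = 0.0343). This call held in 8 of 17 alternative analyses, with adjusted p from 0.000615 to 0.130, and ended without any 1 of the MycT58A or control libraries, without EV replicate 1, with no low-count filter and in the fit of these 2 groups alone. Over all genes 1259 calls became 311 to 363 without any 1 control library and 34 in that fit.

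The next members missed the threshold. Kif11 stood at 3.04-fold, Kif15 at 2.70-fold and Kif22 at 2.31-fold, with edgeR adjusted p of 0.0694, 0.0768 and 0.0947, and all of them passed by DESeq2 and by limma-voom. Of all 15171 genes DESeq2 called 3446 and limma-voom 1513 between the tumour groups, beside 1259 by edgeR. Kif11 also passed without EV replicate 1, at 4.95-fold, and without EV replicate 2, Kif15 without EV replicate 2 and Kif22 without EV replicate 3. Leaving out EV replicate 1, 2 or 3 let 1924, 2565 and 3977 of all genes pass. Kif20a at 1.76-fold and Kif23 at 1.87-fold had edgeR adjusted p of 0.225 and 0.261. Of the 18 spindle partners, 18 had positive log2 fold changes, as had 7310 of all 15171 genes, and 2 passed, a share of 11.1% beside 8.30% of all genes. Nusap1, which binds spindle microtubules near chromatin, had 127, 111 and 152 CPM in MycT58A tumours and 49.4, 21.1 and 60.0 CPM in EV tumours (2.99-fold, edgeR adjusted p = 0.0455), and Ckap5 was 2.19-fold higher (edgeR adjusted p = 0.0175). Both calls ended without any 1 control or MycT58A library and in the fit of these 2 groups alone (adjusted p up to 0.148 for Nusap1 and 0.106 for Ckap5). That of Nusap1 held in 5 of 17 alternative analyses. It also ended without EV replicate 1, with library size alone, with no low-count filter, with a filter of 1 CPM and with a variance weight per group.

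EV replicate 2 was the lowest of the 6 tumours for all 12 mitotic kinesins. Their summed level was 927, 841 and 959 CPM in MycT58A tumours and 581, 175 and 537 CPM in EV tumours. Without EV replicate 2 the median log2 fold change of the class is 0.62 and 3 of its members pass, as do 2565 of all 15447 genes. Without the library labelled EV replicate 3 the median is 1.22 and 2 members pass, as do 3977 of all 15488 genes. The standard deviation of log2 levels was larger among EV than among MycT58A tumours in 12 of 12 mitotic members and in 33 of 38 members (86.8%). For all genes that share was 86.9%, so a wider spread in EV tumours is not particular to kinesins, although its size was greater in them. The median standard deviation among EV tumours was 0.947 for mitotic members, 0.798 for all tested members and 0.564 for all genes. Among MycT58A tumours it was 0.138, 0.16 and 0.178.

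Since all 8 proliferation markers also had positive log2 fold changes between the tumour groups (Pcna passed, median 1.19), each mitotic kinesin was set against their geometric mean within a library. This log2 difference was higher in every MycT58A than in every EV tumour for Kif18a and Kif15. Kif18a stood at -3.15, -2.83 and -2.82 in MycT58A tumours and at -3.79, -3.48 and -3.46 in EV tumours, and Kif15 at -2.02, -2.08 and -1.94 against -2.10, -2.29 and -2.54. It was lower in every MycT58A tumour for Kif4, Kif18b and Kif20a. For Kif18b this is close to a tie, with -2.538 in MycT58A replicate 3 and -2.537 in EV replicate 3. For Kif4 the values were -1.70, -1.72 and -1.87 in MycT58A tumours and -0.984, -1.56 and -1.26 in EV tumours. The groups overlapped for the other 7 members. These ratios are a description without a test and without a share over all genes.

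Among the axonal and neuronal kinesins, the kinesin-1 heavy chains carry mitochondria, vesicles and other cargo, Kif5b in most cell types and Kif5a and Kif5c mainly in neurons. Kif5a had 26.6, 7.13 and 22 CPM in MycT58A tumours, 5.79, 12.1 and 7.37 CPM in EV tumours, and 2403, 1679 and 2974 CPM in control cerebellum. It was 127-fold lower in MycT58A (log2 fold change -6.99 ± 0.63 SE, edgeR adjusted p = 5.81e-05) and 279-fold lower in EV tumours (-8.12 ± 0.66, edgeR adjusted p = 4.59e-05), with the tumours far below every control. Kif5c had 42.2, 41.8 and 48.7 CPM in MycT58A tumours, 4.69, 22.4 and 9.30 CPM in EV tumours, and 1352, 1432 and 1622 CPM in control cerebellum. The falls were 33.2-fold in MycT58A (edgeR adjusted p = 0.000132) and 121-fold in EV tumours (edgeR adjusted p = 5.97e-05), and 210-fold in EV tumours without EV replicate 2. Kif5b changed little beside these, with 243, 246 and 273 CPM in MycT58A tumours, 302, 284 and 283 CPM in EV tumours, and 449, 412 and 509 CPM in control cerebellum, which is 1.80-fold lower in MycT58A (edgeR adjusted p = 0.00215) and 1.58-fold lower in EV tumours (edgeR adjusted p = 0.00862, but 0.0547 without control replicate 3).

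The leading heavy chain differed between tumours and cerebellum. Kif5b made up 78.4% ± 3.1 of kinesin-1 reads per exon length in MycT58A tumours, 92.7% ± 4.3 in EV tumours and 9.64% ± 0.79 in control cerebellum (SD, n = 3 each). Kif5a made up 6.43% ± 3.43, 3.06% ± 1.12 and 55.5% ± 5.8 in the same groups, and Kif5c 15.2% ± 0.45, 4.29% ± 3.13 and 34.9% ± 5.1. A like shift held among the Kif1 genes, where Kif1c made up 61.1% ± 1.6 in MycT58A tumours, 64.4% ± 5.2 in EV tumours and 9.52% ± 1.36 in control cerebellum. Kif1a made up 12.8% ± 3.4, 18.3% ± 9.4 and 73.4% ± 4.4.

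Kif1a, the motor of synaptic vesicle precursors, had 49.6, 26.4 and 31.2 CPM in MycT58A tumours, 28, 148 and 62.2 CPM in EV tumours, and 1784, 1422 and 1929 CPM in control cerebellum. It was 47.9-fold lower in MycT58A (edgeR adjusted p = 0.000167) and 21.6-fold lower in EV tumours (edgeR adjusted p = 0.000471), where EV replicate 2 was the highest tumour and the fall without it is 37.8-fold. Kif1b, which carries mitochondria and synaptic vesicle precursors, had 119.8, 126 and 161 CPM in MycT58A tumours, 127, 133 and 109 CPM in EV tumours, and 695, 825 and 706 CPM in control cerebellum. The tumours were alike and 5.47-fold (MycT58A) and 6.03-fold (EV) below control, with edgeR adjusted p of 4.17e-05 and 3.84e-05. Kif3c, a neuronal partner of Kif3a in kinesin-2, had 25.3, 30.7 and 26.3 CPM in MycT58A tumours, 39.4, 45.1 and 23 CPM in EV tumours, and 249.5, 219 and 242 CPM in control cerebellum. It was 8.63-fold lower in MycT58A (edgeR adjusted p = 4.73e-05) and 6.61-fold lower in EV tumours (edgeR adjusted p = 8.79e-05), and 1110002L01Rik, which overlaps 35.3% of its exon bases on the opposite strand, had 3.18 CPM or less in every library.

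The kinesin-4 pair Kif21a and Kif21b, which slow microtubule growth in neurons, went opposite ways. Kif21a had 35.8, 38.5 and 41.8 CPM in MycT58A tumours, 13.5, 10.7 and 36.6 CPM in EV tumours, and 151, 166 and 174 CPM in control cerebellum. It was 4.23-fold lower in MycT58A (edgeR adjusted p = 0.0028) and 8.10-fold lower in EV tumours (edgeR adjusted p = 0.000629), or 13.3-fold in EV tumours without the library labelled EV replicate 3. Kif21b had 62.9, 71.5 and 47.7 CPM in MycT58A tumours, 77.1, 93.3 and 60.9 CPM in EV tumours, and 30.3, 31.8 and 29.6 CPM in control cerebellum. It was the 1 axonal and neuronal member that was higher than in control cerebellum, at 1.98-fold in MycT58A (edgeR adjusted p = 0.0044) and 2.52-fold in EV tumours (edgeR adjusted p = 0.00123). Kif21b made up 45.2% ± 6.5 of the pair per exon length in MycT58A tumours, 68.2% ± 18.7 in EV tumours and 9.05% ± 0.67 in control cerebellum.

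Of the remaining members, Kif17, a dendritic motor that carries NMDA receptor cargo, was 29.4-fold lower in MycT58A and 24.1-fold lower in EV tumours, with 3.88, 2.66 and 10.5 CPM in control cerebellum. It had 7, 4 and 4 counts in MycT58A tumours and 13, 5 and 0 counts in EV tumours, so both folds rest on few counts. Its fold is 16.8 in MycT58A tumours without control replicate 3 and 47.3 in EV tumours without EV replicate 1, and its EV call ended with a variance weight per group (adjusted p = 0.126). Kifc2, a neuronal motor of the kinesin-14 family, was 39-fold and 24.2-fold lower in MycT58A and EV tumours (68.4-fold in EV tumours without EV replicate 2). Kif2a, which trims microtubules at growing axon branches and is also made outside neurons, passed in neither comparison. It had 89.8, 91.4 and 84.5 CPM in MycT58A tumours, 52.3, 44.3 and 68.5 CPM in EV tumours, and 57.7, 69.4 and 66.6 CPM in control cerebellum, with edgeR adjusted p of 0.0676 for MycT58A and 0.331 for EV tumours against control cerebellum.

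For these 9 lower members every tumour was below every control, beside 41.5% of all genes in MycT58A and 32.2% in EV tumours. Markers of neurons and of glia of the cerebellum fell with the axonal motors. All 8 granule neuron markers were lower in both kinds of tumour, with a summed level of 68.8 to 127 CPM in MycT58A tumours, 12.8 to 54.4 CPM in EV tumours and 4255 to 5878 CPM in control cerebellum. All 6 Purkinje cell markers were lower as well, at 96.9 to 153 CPM, 97.0 to 308 CPM and 9792 to 11277 CPM. Of 8 oligodendrocyte markers 7 were lower in MycT58A and 8 in EV tumours, at 58.9 to 697 CPM in MycT58A tumours, 80.3 to 301 CPM in EV tumours and 2895 to 5316 CPM in control cerebellum. Of 7 astrocyte and Bergmann glia markers 6 were lower in MycT58A and 5 in EV tumours, at 268 to 544 CPM, 658 to 788 CPM and 3276 to 4305 CPM. No marker of these 4 lists was at 0 in all libraries of a group, and the part of any of these cells in the axonal result was not tested.

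**Figure D4:**
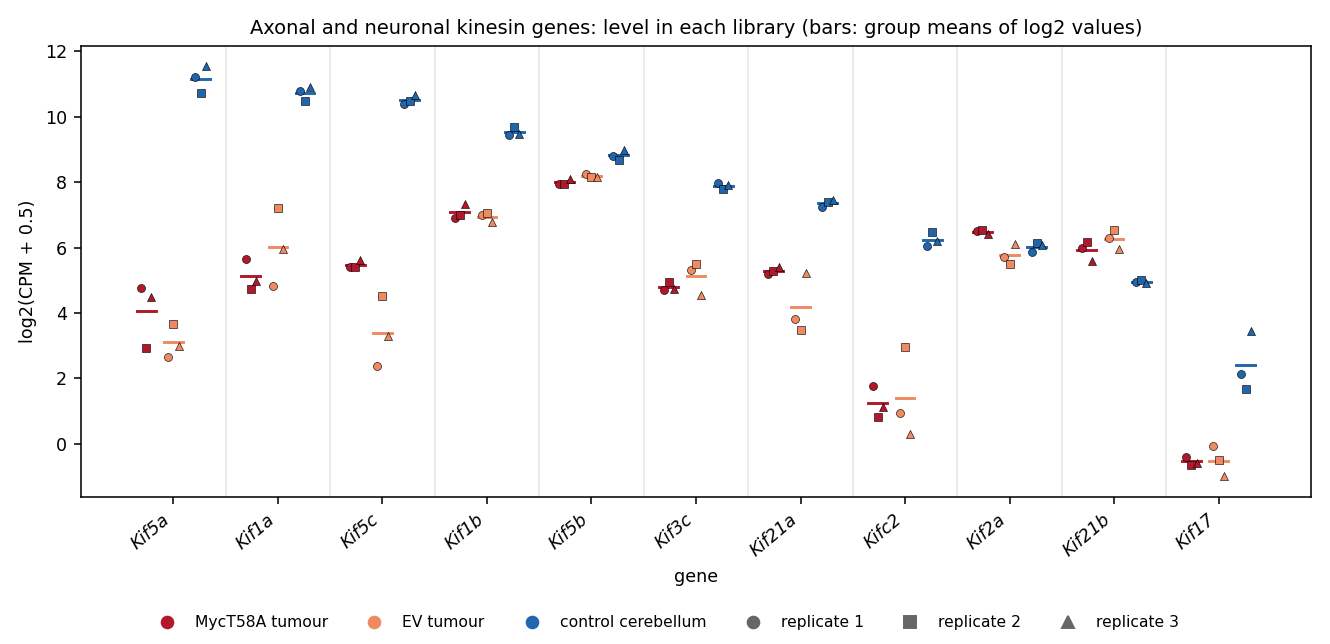
Level of the 11 axonal and neuronal kinesins in each library as log2(CPM + 0.5), with a mark for each replicate and a bar for the mean of the 3 libraries of a group, MycT58A, EV and control from left to right within a gene. For 9 genes all tumours lie below all controls. Kif21b lies above them, and Kif2a is near the control level.

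The partners that hold cargo to these motors were read as a list of 22 light chains and adaptors, of which 18 were lower and 0 higher in MycT58A tumours, and 19 lower and 1 higher in EV tumours. Klc1, a kinesin-1 light chain, had 72.5, 63.9 and 71.6 CPM in MycT58A tumours, 75.3, 76.6 and 53.4 CPM in EV tumours, and 573, 525 and 562 CPM in control cerebellum, and was 7.98-fold lower in MycT58A and 8.09-fold lower in EV tumours (edgeR adjusted p = 2.28e-05 and 2.20e-05). Kifap3, the kinesin-2 adaptor, was 4.49-fold and 5.07-fold lower. The gene higher in EV tumours was the light chain Klc3, with 0.827, 1.17 and 0.767 CPM in MycT58A tumours and 0.171, 4.84 and 8.73 CPM in EV tumours and 0.327, 0.532 and 0.653 CPM in control cerebellum, a call that 2 of the 3 EV tumours carry (edgeR adjusted p = 0.0321). It ended without the library labelled EV replicate 3, at 4.93-fold, and without any 1 control library. The call of Klc3 also ended in the fit of the 2 groups alone and by limma-voom without and with a variance weight per group. Its adjusted p was up to 0.307 over these analyses. Of 16 axonal microtubule proteins 15 were lower in MycT58A and 14 in EV tumours, and none was higher. The background for both lists is 31.0% of all genes lower in MycT58A and 26.3% lower in EV tumours. Stmn3, a neuronal stathmin, was 98.4-fold lower in MycT58A (164-fold without MycT58A replicate 1) and 257-fold lower in EV tumours, and Map6, which stabilises microtubules, 12.7-fold and 9.49-fold lower.

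Between the tumour groups 0 axonal or neuronal kinesins passed by edgeR, 3 had an unadjusted p under 0.05 (Kif5c, Kif2a and Kif5a), and Kif5c and Kif2a passed by DESeq2 and by limma-voom. Those 2 tools called 3446 and 1513 of all 15171 genes here. Kif5c was nearest, at 3.65-fold with every MycT58A tumour above every EV tumour (log2 fold change 1.87 ± 0.48 SE, edgeR adjusted p = 0.0501), and it passed in 5 of 17 alternative analyses, with 6.37-fold without EV replicate 2. Kif2a stood at 1.61-fold (edgeR adjusted p = 0.0616), Kif5a at 2.20-fold (edgeR adjusted p = 0.156) with groups that overlap, and Kif21a at 1.91-fold (edgeR adjusted p = 0.161). Without the library labelled EV replicate 3, Kif21a passed at 3.19-fold (edgeR adjusted p = 0.00217), and Kif2a (higher) and Kif3c (lower in MycT58A tumours) passed as well. Of all genes 3977 of 15488 passed without that library. Kif1a was the other way, at -1.15 on the log2 scale (edgeR adjusted p = 0.182), at -0.33 without EV replicate 2. It passed without EV replicate 1 at -1.55 (edgeR adjusted p = 0.04995), as did 1924 of 15448 genes. Of the axonal microtubule list Map2, a dendritic microtubule protein, was higher in MycT58A tumours, with 56, 67.7 and 53.2 CPM in MycT58A tumours and 8.29, 30.4 and 13.3 CPM in EV tumours (3.41-fold, edgeR adjusted p = 0.0418). Tubb2a, a beta-tubulin, was lower, with 46.3, 42.1 and 29.97 CPM in MycT58A tumours and 116, 105 and 139.8 CPM in EV tumours (3.05-fold, edgeR adjusted p = 0.00892). The call of Map2 ended without any 1 control or MycT58A library (adjusted p up to 0.130, and 5.49-fold without EV replicate 2), and that of Tubb2a without MycT58A replicate 2 or 3 (up to 0.0632). Both also ended in the fit of these 2 groups alone, and that of Map2 with library size alone. Markers of other cells were read between the tumour groups too. Log2 fold changes of MycT58A over EV were positive for 8 of 8 granule neuron markers (median 1.15, with Zic1 passing), 8 of 8 oligodendrocyte markers (median 1.28, with 0 passing by edgeR and 1 at an unadjusted p under 0.05) and 5 of 6 Purkinje cell markers (median 0.85, again with 0 and 1). In each of these lists only 1 marker was higher in every MycT58A than in every EV tumour. Astrocyte and Bergmann glia markers went the other way, with negative values for 6 of 7 (median -0.81). Of these 7, 1 passed as higher and 1 as lower by edgeR, a share of 28.6% beside 8.30% of all genes. The oligodendrocyte sum was 697, 58.9 and 91.2 CPM in MycT58A tumours and 89.1, 301 and 80.3 CPM in EV tumours, so MycT58A replicate 1 alone stood above all EV tumours. The part of these cells in the differences between the tumour groups was not tested. Of the 22 light chains and adaptors 0 passed by edgeR and by limma-voom. DESeq2 called 3 of them, beside 3446 of all 15171 genes, and 6 had an unadjusted p under 0.05.

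The 8 kinesins of cilia and centrioles were divided, with 2 higher and 4 lower in MycT58A tumours and 3 higher and 3 lower in EV tumours. That is 75.0% of the class in each comparison, beside 62.2% of all genes in MycT58A and 57.0% in EV tumours. All genes were divided too, with 31.2% higher and 31.0% lower in MycT58A and 30.7% and 26.3% in EV tumours. Kif7, the motor at the tip of the primary cilium that regulates Gli factors, had 21, 24 and 22.9 CPM in MycT58A tumours, 25.3, 15 and 22.7 CPM in EV tumours, and 2.12, 1.68 and 1.63 CPM in control cerebellum. It was 12.4-fold higher in MycT58A (log2 fold change 3.64 ± 0.29 SE, edgeR adjusted p = 3.83e-05) and 11.5-fold higher in EV tumours (3.53 ± 0.29, edgeR adjusted p = 4.59e-05), with every tumour above every control. Kif24, a centriolar motor that holds back cilium assembly, had 11.2, 8.69 and 10.9 CPM in MycT58A tumours, 7.12, 2.68 and 6.12 CPM in EV tumours, and 0.736, 1.68 and 1.82 CPM in control cerebellum, and was 7.23-fold higher in MycT58A (edgeR adjusted p = 0.00125) and 3.75-fold higher in EV tumours (edgeR adjusted p = 0.0094). Kif3a, a heavy chain of the motor that carries cargo up the cilium and also along axons, had 47.7, 42.7 and 46.9 CPM in MycT58A tumours, 54.2, 48.4 and 44.5 CPM in EV tumours, and 176, 153 and 189.7 CPM in control cerebellum. It was 3.78-fold lower in MycT58A (edgeR adjusted p = 4.99e-05) and 3.52-fold lower in EV tumours (edgeR adjusted p = 7.23e-05).

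Kif3b, the partner of Kif3a in the cilium, was lower by less, 1.45-fold in MycT58A and 1.59-fold in EV tumours. Kif3a held about the same share of the 3 kinesin-2 chains in every group, 51.3% ± 1.5 in MycT58A tumours, 52.6% ± 4.6 in EV tumours and 52.1% ± 2.1 in control cerebellum. The shares of its partners differed: Kif3b held 33.7% ± 1.1, 29.2% ± 2.8 and 13.2% ± 1.5, and Kif3c 15% ± 2.1, 18.2% ± 3.8 and 34.6% ± 0.99 (SD, n = 3 each).

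The motors of motile cilia were at a few CPM. Kif19a, which shortens motile cilia, was 3.94-fold lower in MycT58A (edgeR adjusted p = 0.026) and 3.60-fold lower in EV tumours (edgeR adjusted p = 0.0368). Kif9 was 4.58-fold lower in MycT58A tumours (edgeR adjusted p = 0.0163) and did not pass in EV tumours (edgeR adjusted p = 0.429). Kif6 had 2.73, 2.73 and 3.71 CPM in MycT58A tumours, 2.67, 3.06 and 7.26 CPM in EV tumours, and 2.41, 1.46 and 0.793 CPM in control cerebellum. It was 2.77-fold higher in EV tumours (edgeR adjusted p = 0.0466), where the library labelled EV replicate 3 is far above the other 2, and missed the threshold in MycT58A tumours (edgeR adjusted p = 0.148). These calls ended in some alternative analyses. Leaving out any 1 control library lowered calls over all genes too. They were 6954 to 7097 in EV tumours, beside 8643 in the main analysis, and 8012 to 8150 in MycT58A tumours, beside 9438. Kif19a ended without any 1 control library in both comparisons, and also without replicate 1 or 3 of the MycT58A group for MycT58A tumours, and without EV replicate 1 or 3 or MycT58A replicate 3 for EV tumours (adjusted p up to 0.0937 and 0.121). Kif6 ended without control replicate 2 or 3, EV replicate 3 or any 1 MycT58A library (up to 0.171). In EV tumours Kif19a and Kif6 also ended with no low-count filter, in the fit of the 2 groups alone and with a variance weight per group. Kif6 ended by limma-voom as well. Kif9 ended without control replicate 1 or MycT58A replicate 2 (up to 0.0619). The smaller fall of Kif3b in MycT58A tumours ended without any 1 control or MycT58A library and with no low-count filter (up to 0.0895). Kif27, a relative of Kif7, passed in no comparison. Markers of multiciliated ependymal cells summed to 5.86 to 13.3 CPM in MycT58A tumours, 10.4 to 28.6 CPM in EV tumours and 26.1 to 55.7 CPM in control cerebellum. Of these 8 markers 4 were lower in MycT58A tumours (Foxj1, Dnah5, Dnah11 and Tekt1) and 0 in EV tumours by edgeR, with 6 and 1 at an unadjusted p under 0.05 beside 66.3% and 62.4% of all genes, and their part in the low levels of Kif19a and Kif9 was not tested.

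Of 19 intraflagellar transport genes, the cargo trains that kinesin-2 pulls, 7 were higher and 2 lower in MycT58A tumours, and 5 higher and 3 lower in EV tumours, shares of 47.4% and 42.1% that are below the 62.2% and 57.0% of all genes. Ift46 was 2.01-fold and 2.05-fold higher, and Dync2li1, a light chain of the returning dynein, 2.95-fold and 2.95-fold higher in MycT58A and EV tumours. Ift172 was 2.45-fold and 2.33-fold lower, and Ift81 1.64-fold and 2.28-fold lower (in MycT58A tumours not without control replicate 3 or MycT58A replicate 1 or 3, adjusted p up to 0.0708). Between the tumour groups Ift52 was higher, with 60.6, 63.1 and 54.4 CPM in MycT58A tumours and 33.6, 41.8 and 37.3 CPM in EV tumours (1.58-fold, edgeR adjusted p = 0.0448), a call that held in 4 of 17 alternative analyses and ended without any 1 control or MycT58A library and without EV replicate 1 (adjusted p up to 0.178). No kinesin of this class passed between them by edgeR, DESeq2 or limma-voom, and Kif9 alone had an unadjusted p under 0.05. Kif9 was lower in MycT58A than in EV tumours without the library labelled EV replicate 3 (edgeR adjusted p = 0.0302), where 3977 of all 15488 genes passed.

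Of the 5 kinesins that carry endosomes and Golgi membranes, Kif16b, which moves early endosomes, was higher in both kinds of tumour. It had 42.5, 45.9 and 46.5 CPM in MycT58A tumours, 69.1, 17.3 and 32.5 CPM in EV tumours, and 12, 12 and 13 CPM in control cerebellum. That is 3.65-fold in MycT58A (edgeR adjusted p = 0.00547) and 3.22-fold in EV tumours (edgeR adjusted p = 0.0101, and 2.02-fold without EV replicate 1). Kifc3, a minus-end motor of Golgi membranes and cell junctions, had 80.6, 66.2 and 46.2 CPM in MycT58A tumours, 22.4, 25.7 and 15.9 CPM in EV tumours, and 30.4, 31.5 and 26.8 CPM in control cerebellum. It was higher in MycT58A than in EV tumours in every pairing of libraries, 3.01-fold (log2 fold change 1.59 ± 0.27 SE, edgeR adjusted p = 0.0165), and 2.18-fold higher in MycT58A tumours than in control cerebellum (edgeR adjusted p = 0.00571). In EV tumours against control it missed the threshold (edgeR adjusted p = 0.153).

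The call of Kifc3 between the tumour groups held in 12 of 17 alternative analyses. The call ended, with adjusted p up to 0.115, without any 1 MycT58A library, in the fit of these 2 groups alone and with a variance weight per group.

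Marker lists of host cells differed between the tumour groups as well. All 8 microglia and macrophage markers had negative log2 fold changes, 3 of 8 passed (Cx3cr1, C1qa and Cd68), and their summed level was 53.5 to 115 CPM in MycT58A tumours and 300 to 449 CPM in EV tumours, with none at 0 in a whole group. The 8 pericyte and fibroblast markers summed to 1266 to 1631 CPM in MycT58A tumours and 1692 to 10829 CPM in EV tumours, with 2 of 8 lower (Pdgfrb and Pdgfra). Of all genes 8.30% passed between the tumour groups, 5.02% as lower in MycT58A tumours. All 8 endothelial markers had negative log2 fold changes as well, with 0 passing by edgeR. The marker names given here were chosen after their values were seen. The part of these cells in the differences between the tumour groups was not tested.

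Kif13b, a kinesin-3 motor of membrane cargo, had 12.7, 11.9 and 16.4 CPM in MycT58A tumours, 15.2, 53.5 and 19.5 CPM in EV tumours, and 28.5, 27.4 and 24.4 CPM in control cerebellum. EV replicate 2 was far above the other EV tumours, and without it Kif13b is lower in EV tumours than in control cerebellum, at -0.62 on the log2 scale (edgeR adjusted p = 0.0368), beside 0.14 with it (edgeR adjusted p = 0.802). Kif13a, the motor of recycling endosomes, and Kif1c, which moves Golgi-derived vesicles, passed in no comparison by edgeR. Kif1c had 143, 119 and 132 CPM in MycT58A tumours, 161, 239.8 and 184 CPM in EV tumours and 191, 168 and 155 CPM in control cerebellum, at 1.48-fold lower in MycT58A than in EV tumours (edgeR adjusted p = 0.0955), a difference that passed by DESeq2, as did 3446 of all 15171 genes.

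The atypical kinesins Kif26a and Kif26b have a motor domain that does not split ATP, and Kif26b has been placed in non-canonical Wnt signalling through Ror receptors. Kif26a had 35.2, 21 and 18.2 CPM in MycT58A tumours, 31.2, 7.22 and 64 CPM in EV tumours, and 6.62, 4.78 and 6.91 CPM in control cerebellum. It was 4.06-fold higher in MycT58A (edgeR adjusted p = 0.0264) and 5.59-fold higher in EV tumours (edgeR adjusted p = 0.0132), with EV tumours spread more widely than any difference between the tumour groups and 3.23-fold without the library labelled EV replicate 3. Kif26b had 22.1, 26.6 and 28.1 CPM in MycT58A tumours, 21.6, 22.6 and 48.2 CPM in EV tumours, and 50.3, 42 and 43.7 CPM in control cerebellum. It was 1.77-fold lower in MycT58A tumours at the edge of the threshold (edgeR adjusted p = 0.0495), and missed it in EV tumours (edgeR adjusted p = 0.161). The call of Kif26b ended without any 1 control or MycT58A library, with no low-count filter and with a filter of 1 CPM (adjusted p up to 0.152). That of Kif26a ended by limma-voom and without control replicate 2 in both comparisons, and in MycT58A tumours also without control replicate 1 or 3 or MycT58A replicate 1 (up to 0.0890 in MycT58A and 0.0811 in EV tumours).

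Dynein, the motor that runs the other way on the same tracks, was read with dynactin as a list of 21 genes for contrast. Of these 2 were higher and 8 lower in MycT58A tumours and 2 higher and 7 lower in EV tumours, shares of 47.6% and 42.9% that are below the share of all genes. Nde1, a dynein partner in mitosis and neuron migration, was 5.38-fold and 3.55-fold higher in MycT58A and EV tumours, and Dynll1, a light chain, 2.13-fold and 2.17-fold. Dync1i1, the intermediate chain of neurons, was 64.1-fold (101-fold without MycT58A replicate 1) and 16.6-fold lower, Pafah1b1, known as Lis1, 2.45-fold and 2.40-fold, and the adaptor Bicd1 3.15-fold and 3.31-fold. Between the tumour groups 0 of 21 passed by edgeR and by limma-voom. DESeq2 called 4 of them, beside 3446 of all 15171 genes, and 6 had an unadjusted p under 0.05.

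**Figure D5:**
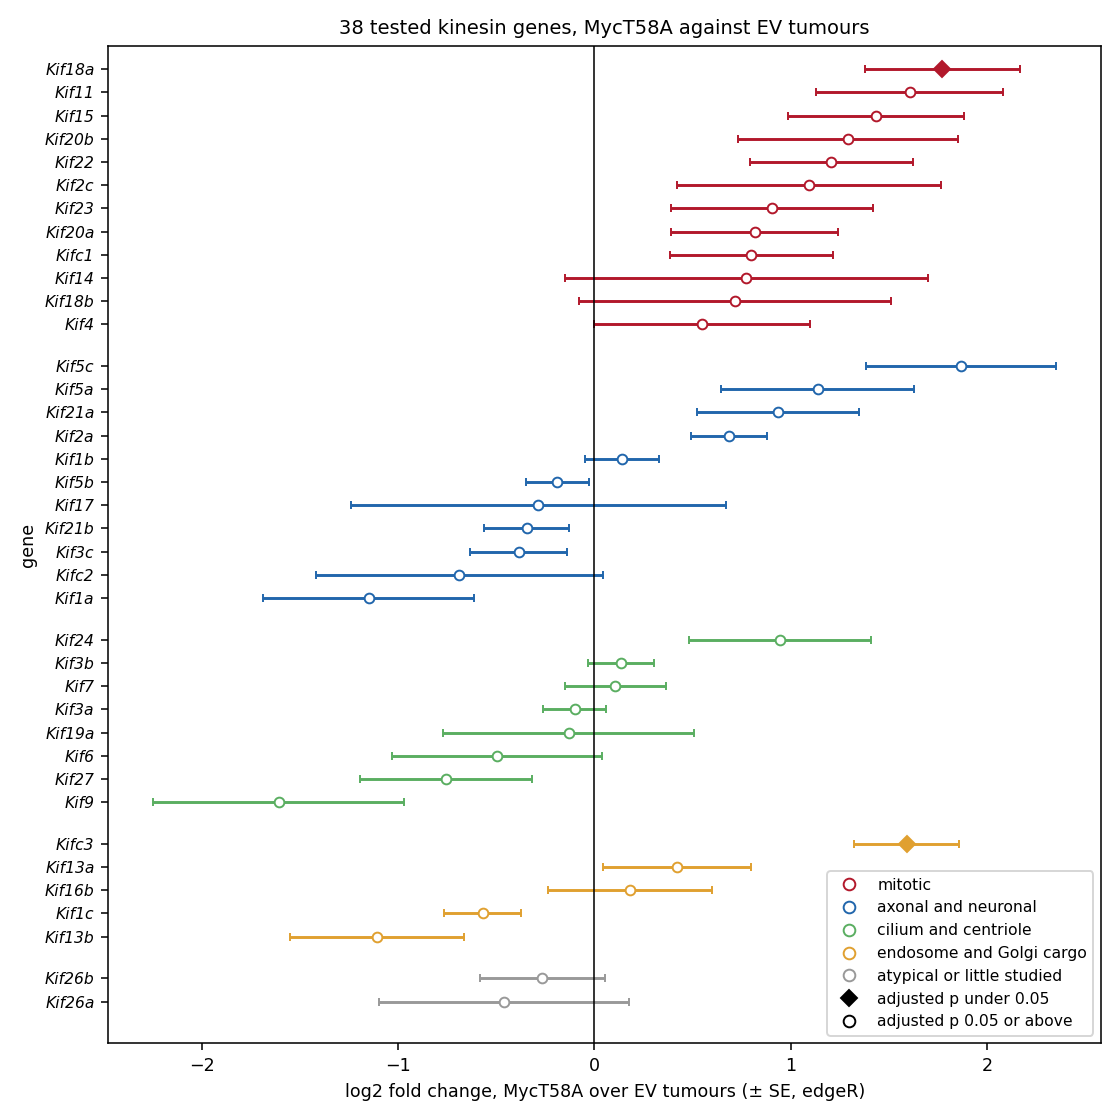
Log2 fold change of MycT58A over EV tumours for the 38 tested kinesins with its standard error (bars, edgeR), grouped by role class, with filled diamonds for an adjusted p under 0.05 and open circles otherwise. All 12 mitotic members lie right of 0, the other classes lie on both sides, and Kif18a and Kifc3 are the 2 that passed.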

How the data were processed

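The deposited table holds whole-number read counts per gene symbol for 9 libraries of total RNA, not normalised by the authors. The submitters' processing notes list bcl2fastq, TopHat, edgeR and the mm10 build. Their versions, the read counter, the annotation and any use of strand are not stated in what was used here, so reads of overlapping and antisense genes cannot be told apart.

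Low genes were removed by filterByExpr (edgeR 4.0.16, R 4.3.3; count at least 10, total at least 15), which left 15171. TMM scaling was followed by edgeR's quasi-likelihood test with a mean for each group and 6 residual degrees of freedom. All 9 libraries entered it, so every comparison also draws on the third group's spread. P-values were adjusted by Benjamini-Hochberg over all genes kept, with a threshold of 0.05. Alternatives were RLE factors, library size alone, no filter, a filter of 1 CPM, only the 2 groups compared, DESeq2 1.42.0, limma-voom (limma 3.58.1) without and with a variance weight per group, and leaving out each library.

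Exon lengths and overlaps come from GENCODE vM21, and levels per length divide CPM by the union of a gene's exons. Log2 values for figures and spread use a pseudocount of 0.5. No pair of libraries held identical counts. Groups follow the genotype and source labels, and replicates are numbered in sample order. Members, role classes and lists were chosen with earlier results of these data known. Every member is named. Values in each library are given for members that passed between the tumour groups, for the 6 (mitotic, axonal) or 3 (other classes) of smallest p against control, for those called against the direction of their class, and for Kif11, Kif1a and Kif5a. Other values were added after they were seen. One result is not reported here. List genes named are those that passed between the tumour groups and the 2 of smallest p in each direction against control. Plots were made in matplotlib 3.10.9 under Python 3.11.15.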

Additional observations from a re-analysis of the deposited data

How the results depend on the processing

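No paired analysis was possible because the replicate numbers follow the order of the samples and pair nothing across groups. Between the tumour groups the count of kinesins higher in MycT58A tumours, 2, was 1 with no low-count filter, 0 with only the 2 groups compared, 7 by DESeq2 and 7 by limma-voom, and 0 to 5 with 1 library left out. The lowest value came without any 1 MycT58A library, the highest without EV replicate 2 or 3, and a count of 1 without any 1 control library. Calls over all genes, 1259 in the main analysis, moved as well. They were 861 with no low-count filter, 34 with only the 2 groups compared, 3446 by DESeq2 and 1513 by limma-voom. They were 311 to 363 without any 1 control library and 1924 to 3977 without any 1 EV library. The count lower in MycT58A tumours, 0, was 1 by DESeq2 and 0 to 2 with 1 library left out (1 without EV replicate 1 and 2 without EV replicate 3). The causes were not tested. Against control cerebellum all counts of kinesins called stayed within 1.5 times, and 27 of 32 called members in MycT58A tumours and 25 of 30 in EV tumours passed in all 17 alternatives. No kinesin called against control cerebellum changed sign. Kif13b reversed in EV tumours against control cerebellum: its log2 fold change of 0.14 ranged from -0.62 without EV replicate 2 to 0.45 without EV replicate 1. Among the other values of named genes and lists, 2468 kept their call, 148 lost it or fell in count and 83 gained it or rose in count. With library size alone the median log2 fold change of all genes is -0.17 for MycT58A over EV tumours, beside -0.04 with TMM, and the mitotic median between the tumour groups is 0.88, beside 1.0. Depth limits the folds over control of Kif14, Kif15, Kif18b, Kif23 and Kif2c, which rest on 13 to 36 control counts. It also limits those of Kif17, with 0 to 13 counts in each tumour library.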
